A study of Mus musculus with 3 samples.

Results

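Peaks of SOX2 binding were examined at 4 loci of the Notch pathway, those of Hes1, Notch1, Notch2 and Jag1, in antral glands of the mouse stomach. A peak belonged to a locus when it overlapped a fixed window around the gene on the mouse build mm9 by at least 1 bp. The windows were chromosome 16 from 29965000 to 30168000 for Hes1, chromosome 2 from 26213000 to 26472000 for Notch1, chromosome 3 from 97717000 to 98055000 for Notch2 and chromosome 2 from 136807000 to 137043000 for Jag1. They held 15 of the 7213 peaks in the wild-type list and 0 of the 887 peaks in the knockout list. The loci were selected on the peak positions and scores of these same lists, so the counts, the scores and the absence from the knockout list are a description and carry no test.

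SOX2 is a high-mobility-group transcription factor, and the study used chromatin immunoprecipitation and sequencing (ChIP-seq) with a goat anti-SOX2 antibody to find its targets in the stomach. Wild-type mice carried Rosa26WT with Sox2fl/fl, and knockout mice carried Rosa26CreER with Sox2 fl/fl, so both genotypes had the loxP-flanked Sox2 alleles and differed in the Cre. All were on a C57BL/6 x 129 mixed background, received tamoxifen at 8 weeks of age and gave their stomachs 2 weeks later. Each genotype had 1 ChIP library, and the wild-type input was not analysed here. The CreER at Rosa26 is not restricted to the epithelium, and the number of animals behind a library is not given in the sources used here. Loss of SOX2 in the knockout glands was not checked, because the peak lists measure neither the protein nor the recombination. How deeply each library was sequenced is unknown, and a lower depth alone would shorten a list.

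Notch signalling passes between touching cells. A ligand such as JAG1 on one cell binds a receptor such as NOTCH1 or NOTCH2 on its neighbour, the receptor is cut, and its intracellular part enters the nucleus and acts with RBPJ on target genes. HES1, a basic helix-loop-helix repressor, is among the best known of these targets. In the stomach, Notch activity is known to sustain proliferation of antral stem and progenitor cells and to restrain their differentiation.

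The proximal promoters are the parts of these genes for which reference sequence was at hand, and they are shown because promoters are the best defined place where a factor could act on them. RefSeq promoters matched 3 of the 4 genes, and for these the 250 bases before the gene start are given 5′ to 3′ along the gene, from build GRCm38.p6. Positions on that build cannot be set against the mm9 peaks, and whether a peak lies on a promoter was therefore not determined. Capitals mark a match to ACAAT, the core that SOX proteins bind, to AACAAAG or AACAATG, longer SOX motifs of which the latter contains ACAAT, or to TGGGAA, the core bound by RBPJ, each searched on both strands. The sequences lie at chr2:26503823-26504072 on the minus strand for Notch1, chr3:98013288-98013537 on the plus strand for Notch2 and chr2:137116521-137116770 on the minus strand for Jag1. No promoter was at hand for Hes1.
Notch1: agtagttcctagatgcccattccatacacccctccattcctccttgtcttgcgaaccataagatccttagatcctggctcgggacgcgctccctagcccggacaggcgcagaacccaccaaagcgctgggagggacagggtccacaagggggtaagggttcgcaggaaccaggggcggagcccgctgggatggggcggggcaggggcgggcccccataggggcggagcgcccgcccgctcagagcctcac
Notch2: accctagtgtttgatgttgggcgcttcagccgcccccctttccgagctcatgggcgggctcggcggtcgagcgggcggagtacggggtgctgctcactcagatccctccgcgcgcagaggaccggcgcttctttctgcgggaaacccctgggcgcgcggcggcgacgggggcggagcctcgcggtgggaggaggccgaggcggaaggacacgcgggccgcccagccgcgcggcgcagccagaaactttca
Jag1: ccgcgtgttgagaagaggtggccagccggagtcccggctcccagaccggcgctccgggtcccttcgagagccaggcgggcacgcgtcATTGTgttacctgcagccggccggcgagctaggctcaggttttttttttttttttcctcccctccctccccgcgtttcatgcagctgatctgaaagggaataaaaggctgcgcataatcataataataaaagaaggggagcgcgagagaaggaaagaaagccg
The Jag1 promoter held 1 ACAAT match, read there on the other strand as ATTGT, starting 163 bases before the gene start. The Notch1 and Notch2 promoters held 0 matches to any of these motifs. Over the 32851 RefSeq promoters of this length, 27.7% held ACAAT, 5.03% AACAAAG, 3.29% AACAATG and 21.6% TGGGAA, so such an ACAAT match is common. A match is a run of letters and not a measured binding site.

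Hes1, the transcriptional target, had the most SOX2 peaks of these loci and the highest single score, 255.5, against 104.75 at Notch2, 104.56 at Notch1 and 82.62 at Jag1. Its scores overlapped those of the other loci, with a median of 103.23 at Hes1, 95.52 at Notch1 and 67.51 at Jag1. The single Notch2 peak, at 104.75, was above the Hes1 median. In the wild type, the windows held 7 peaks at Hes1, 4 at Notch1, 3 at Jag1 and 1 at Notch2. With the windows trimmed by 50 kb on each side, Hes1 still had the most, 5 peaks against 3 at Notch1, 2 at Jag1 and 1 at Notch2. With a trim of 90 kb on each side, Hes1 and Notch1 were level at 2 peaks each. The lead of Hes1 in the count thus depends on how much of the window is kept. At the 90 kb trim the Hes1 window is narrower than that of Notch1, so per kb it still held more peaks. The windows differ in width, from 203 kb for Hes1 to 338 kb for Notch2, and the number of peaks per 100 kb was 3.45, 1.54, 1.27 and 0.296 in the same order. As a background, the chromosomes were laid out in tiles of the same width as each window. At least 7 wild-type peaks were held by 46 of 12966 tiles of the Hes1 width (0.355%), and at least 1 by 29.3%. At least 4 were held by 4.69% of the tiles of the Notch1 width, of which 34.1% held any. At least 3 were held by 8.18% of the tiles of the Jag1 width, of which 32.0% held any. The Notch2 window matched an ordinary tile, since 39.8% of the tiles of its width held at least 1 peak and the mean was 0.926. Against the mean of the tiles, the window counts were 12.6 times as high at Hes1, 5.63 at Notch1, 4.63 at Jag1 and 1.08 at Notch2. Tiles include stretches without genes or mappable sequence, while the windows were placed on genes and picked for their peaks, so these shares are not the odds of such a count.

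**Figure D1:**
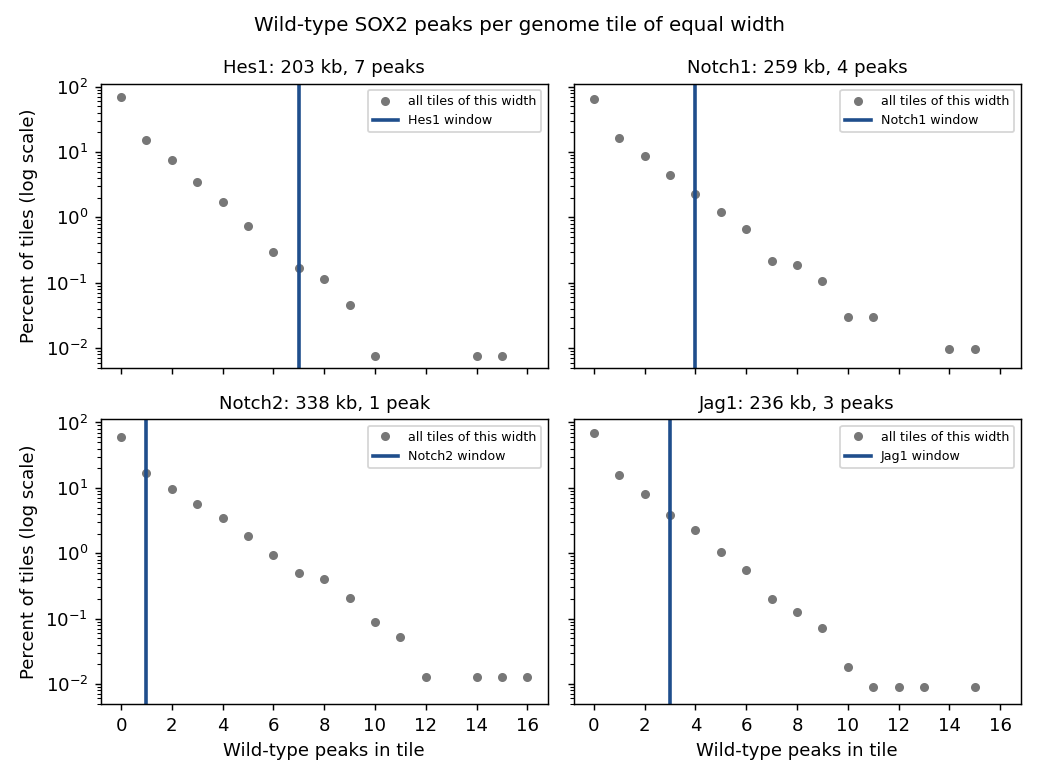
Percent of genome tiles (vertical axis, log scale) that held a given number of wild-type SOX2 peaks (horizontal axis), for tiles as wide as each window. Grey points are all tiles and the blue line is the window's own count: 7 at Hes1, in the far tail where 0.355% of tiles lie, and 1 at Notch2, which 39.8% of tiles reach.

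At Hes1, 5 of the 7 peaks lay side by side in 15.3 kb, on the side of the gene with lower coordinates. To describe positions, the inner stretch of a window is what remains after 100 kb is taken from each side. At Hes1 it is 3 kb long, from 30065000 to 30068000, and the RefSeq gene is 2.44 kb long. Each score below is the value given by the authors' peak caller, with no named scale, and ranks a peak within its list, where rank 1 is the highest. The group began 19.1 kb from the inner stretch with a peak from 30045621 to 30045940 that scored 66.55. The next peaks ran from 30047569 to 30047996, scoring 103.23, and from 30053318 to 30053748, scoring 199.91 at rank 865. Closest to the gene were the peaks from 30056060 to 30056241, scoring 103.07, and from 30060470 to 30060877, scoring 154.14. The strongest of the group was thus in its middle, and 4 of its 5 scores were above the list's median of 82.62. Gaps between its peaks were 1.63 to 5.32 kb, and 4.12 kb separated the last from the inner stretch, which itself held none.

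Such a dense group was uncommon in the list. Of the 7123 runs of 5 neighbouring wild-type peaks, 19 (0.267%) were as short as the Hes1 run or shorter. Both the run of 5 and the limit of 15.3 kb were taken from the Hes1 group itself, at a locus picked for its peaks. The share is therefore a description and not the odds of such a group. Runs that share peaks were counted separately, so a place with more than 5 wild-type peaks holds several of the 19. The 19 runs fell into 6 places, of which 3, the Hes1 group among them, held no knockout peak. The other 3 places, on chromosomes 9 and 12, held knockout peaks as well. On chromosome 9 they ran from 2999989 to 3008704, with 5 wild-type and 3 knockout peaks, and from 3014542 to 3038419, with 10 and 9. The place on chromosome 12, from 116837046 to 116859646, held 13 and 8. Whether the peaks at these 3 places reflect SOX2 binding was not tested.

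The remaining Hes1 peaks stood alone, and they were the strongest and the weakest of all 15. The strongest lay on the other side of the gene, on chromosome 16 from 30144975 to 30145533, 77.0 kb above the inner stretch, and was 559 bp wide. Its score of 255.5 gave it rank 545, within the top 7.56% of the list. The weakest, from 30009666 to 30009858, scored 51.76 with rank 6741, close to the lowest listed score of 50. In RefSeq on GRCm38.p6, Hes1 has no other protein-coding gene within 100 kb, and its coding neighbours are Opa1, which acts in fusion of mitochondrial inner membranes, and Cpn2, a carboxypeptidase subunit.

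**Figure D2:**
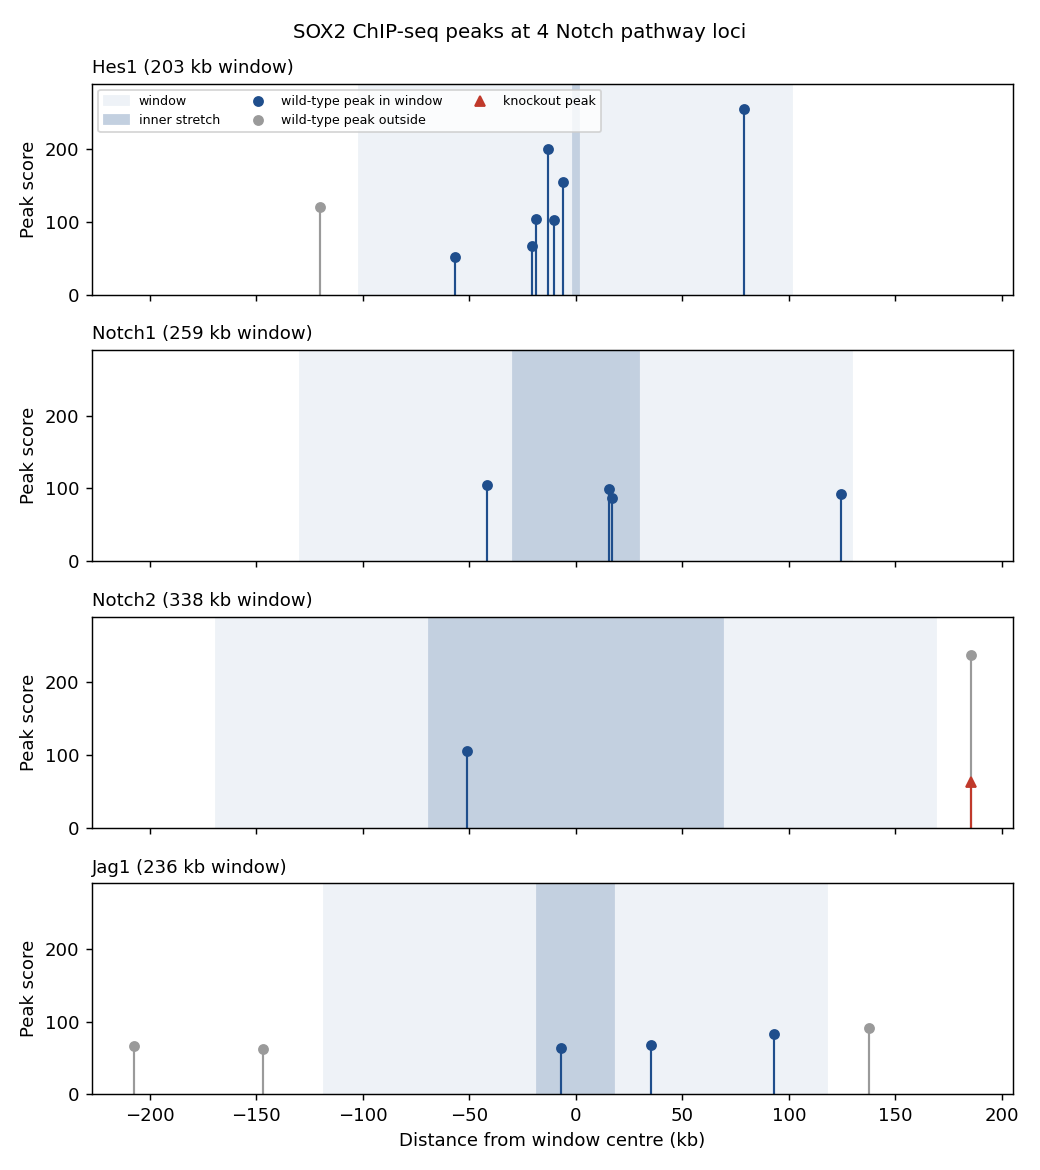
Peak score (vertical axis) against distance from the window centre in kb (horizontal axis) for the 4 loci, out to 100 kb beyond each window, with the window in pale and its inner stretch in darker blue. Blue points are wild-type peaks in the window, grey points wild-type peaks outside it, and the red triangle a knockout peak, whose score ranks it in its own list only. Hes1 shows 5 peaks close together beside the inner stretch, and the only knockout peak plotted lies outside the Notch2 window.

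Notch1, a receptor, had 4 wild-type peaks of nearly equal, middling score. A pair of them was 1.46 kb apart inside the inner stretch, at 26357826 to 26358119 (score 99.37) and 26359580 to 26359869 (score 87.27). A neighbour at least as close was found for 746 peaks of the list, or 10.3%. The peak from 26300870 to 26301181 scored 104.56 and lay 11.8 kb below the inner stretch, and the peak from 26466631 to 26466969 scored 91.68 and lay 94.6 kb above it. The highest of these ranked 2609 and the lowest 3397, so all were in the upper 50% of the list and none in its upper 36%. The inner stretch here is 59 kb and exceeds the RefSeq length of Notch1, 45.9 kb, by 13.1 kb. The pair lies 12.1 and 13.9 kb from the stretch's upper end, so it was not determined whether these peaks are in the gene or beside it. RefSeq lists 8 other protein-coding genes within 100 kb of Notch1, among them Sec16a next to it on one side and Egfl7, which encodes a protein secreted by endothelial cells, on the other. The peaks cannot be assigned to Notch1 from their position alone.

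Notch2, the other receptor, had a single peak, which ran from 97834862 to 97835305 on chromosome 3, scored 104.75 and ranked 2603. It lay 17.9 kb inside the inner stretch, which is 138 kb long beside a RefSeq gene of 137 kb. The edge of the window mattered here. A wild-type peak 16.1 kb above it, from 98071111 to 98071628, scored 237.29 with rank 631 and overlapped a knockout peak at 98071296 to 98071572 that scored 62.46. RefSeq lists Sec22b, Gm5544, Adam30 and Reg4 within 100 kb of Notch2, and Reg4 is a secreted lectin of gut epithelia. That peak is not counted among the 15.

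Jag1, the ligand, had 3 peaks spread over the window, and none reached a score of 100. The peak from 136917795 to 136918057, inside the inner stretch of 36 kb, scored 63.32. The peaks from 136960083 to 136960430 and from 137017940 to 137018224 lay 17.1 kb and 74.9 kb above it and scored 67.51 and 82.62, the latter exactly the list's median. The gaps between them were 42.0 and 57.5 kb. Over the list, the median distance from a peak to the nearer of its neighbours was 34.7 kb. That measure takes the smaller gap of each peak, so it is not like for like with single gaps. Further peaks stood 28.7 kb below the window, with a score of 62.27, and 19.6 kb above it, with a score of 91.54. The inner stretch is close to the RefSeq length of Jag1, 35.1 kb, and Slx4ip is the only other protein-coding gene listed within 100 kb.

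Across the loci, the 15 peaks were ordinary in strength and width. Their median score was 99.37 against 82.62 for the whole list. Of the 15, 10 scored above the list's median, 1 at it and 4 below. Scores reached 100 in 7 of them (46.7%) and in 38.8% of the list, and 5 of these 7 were at Hes1. The 3 peaks in the upper 20% of the list were all at Hes1. The median width was 320 bp in both the 15 and the list, with a range of 182 to 559 bp among the 15. The inner stretches held 4 of the peaks, 2 at Notch1 and 1 each at Notch2 and Jag1, while 11 lay outside. They are the smaller part of each window, 3 of 203 kb at Hes1 and 59 of 259 kb at Notch1. At Notch2 they are 138 of 338 kb, and at Jag1 36 of 236 kb. The split of the peaks is therefore not a result about distance from the genes.

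The knockout list had no peak at any of the 15 sites. As a rough guide, 3 counts over 15 would put the upper limit of that share at 20% if the peaks were independent. The loci were selected on these lists and 5 of the peaks form the Hes1 group, so that limit is a description only. Across the whole list, 8.15% of wild-type peaks overlapped a knockout peak, and among the 6306 peaks with scores between 51.76 and 255.5 the share was 4.76%. With shares this low, 0 of 15 does not set these peaks apart from the rest. The strongest Hes1 peak fell in the highest-scoring 10% of the list, of which 45.0% (exact Clopper-Pearson 95% interval 41.3 to 48.7) overlapped a knockout peak. The peaks with scores of 199.91 and 154.14 fell in the next 10%, of which 14.6% (12.1 to 17.4) did. The third 10% of the list, with a share of 7.91%, held none of the 15, and the other 12 fell below it, where each 10% had a share of 3.6% or less. Intervals cover counting error only.

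**Figure D3:**
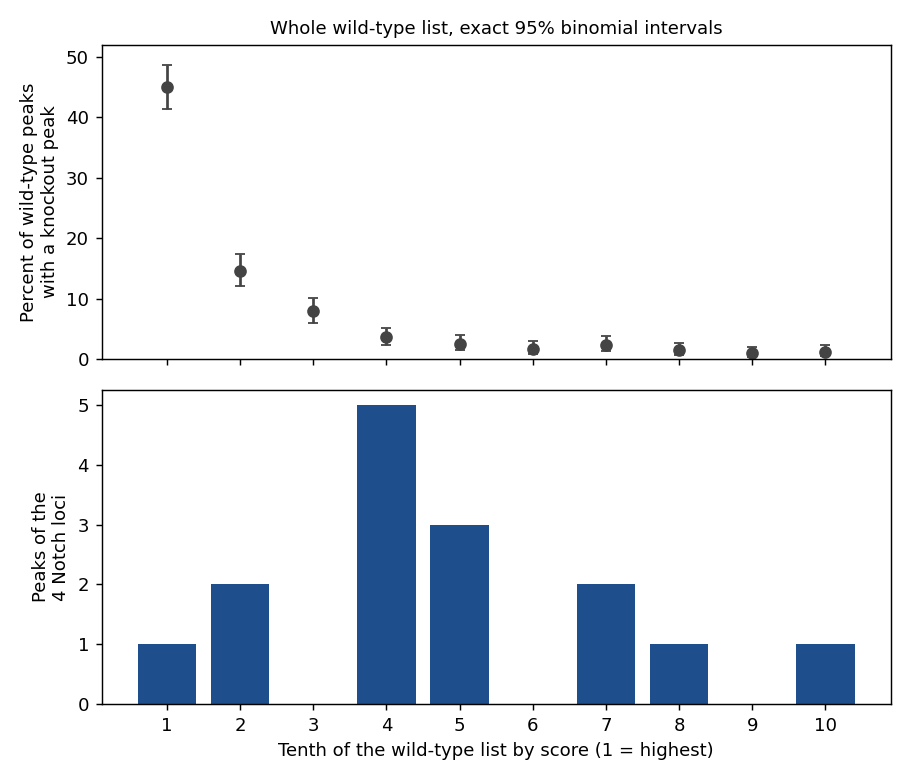
Top, percent of wild-type peaks that overlap a knockout peak (points, exact 95% binomial intervals) in each successive 10% of the list by score, highest first. Bottom, the number of peaks of the 4 loci in the same bins: 1 of 15 lies in the first, where 45.0% overlap, and 12 lie in the fourth or below.

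Most stretches of this size had no knockout peak. Among tiles, at least 1 knockout peak was held by 5.89% at the Hes1 width, 7.4% at the Notch1 width, 9.44% at the Notch2 width and 6.78% at the Jag1 width. The share of tiles without a knockout peak was lower where wild-type peaks were dense. Of the 46 tiles of the Hes1 width with at least 7 wild-type peaks, 17 (37.0%) held no knockout peak, as the Hes1 window did, against 83.6% of those with at least 1. Of the tiles with at least as many wild-type peaks as the other windows, 61.6% held no knockout peak at the Notch1 width, 67.5% at the Jag1 width and 79.8% at the Notch2 width. A tile with more wild-type peaks has more sites at which a knockout peak could overlap, and tiles were not matched on score. These shares are therefore a description and do not set the Hes1 window apart. The nearest knockout peak was 646 to 781 kb from the Hes1 peaks, 236 kb from the Notch2 peak, 1260 to 1430 kb from the Notch1 peaks and 5370 to 5470 kb from the Jag1 peaks. The lowest knockout score was 50.02, so a weaker signal would not be listed, and signal below that limit at these loci cannot be told from no signal. Genotype and depth cannot be told apart with 1 library each.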

How the data were processed

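ChIP-seq peak lists of 1 wild-type and 1 knockout library were used. Glands were fixed in 1% formaldehyde over 10 min and 4 µg of antibody was used, per the labels' protocols. The submitters' processing notes name Bowtie2, MACS and the build mm9. Versions, settings, depth and the control library are not given in the labels used. The authors deposited 1 list per library, with a score for each peak. Scores rank peaks within a list only.

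Windows were read from the given rule, and all peaks overlapping them by at least 1 bp are named. The members and lists were chosen with earlier results of these data known. No test was run, because each genotype had 1 library. In place of random windows, every tile of equal width was counted, laid end to end from position 1 of each chromosome to its last listed peak. Starts were made 1-based. An mm9 genome and annotation were not used here, so peak sequences, gene parts and the other Notch pathway genes planned for analysis were not examined. RefSeq on GRCm38.p6 gave promoters, gene lengths and neighbours only. Counting was tested on simulated data. Alternatives were the overlap, score limit, window width and tiling. Python 3.11.15, NumPy 2.4.6, pandas 2.3.3 and SciPy 1.17.1 were used.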

Additional observations from a re-analysis of the deposited data

How the results depend on the processing

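Of 83 alternatives over 17 reported values, 58 left a count within 1.5 times, a share within its exact interval or the same highest peak, and 25 did not. Moving to peak midpoints, shifted tiles or sliding windows with a step of 10 kb were among the 58 for every locus. With windows trimmed by 90 kb on each side, 2 wild-type peaks were left at Hes1, 2 at Notch1 and 1 at Jag1. Hes1 thus no longer had the most, though its trimmed window was narrower than that of Notch1. The highest scores were then 154.14 at Hes1, 99.37 at Notch1 and 63.32 at Jag1. Trimming by 50 kb left 5 wild-type peaks at Hes1, 3 at Notch1, 2 at Jag1 and 1 at Notch2. It gave highest scores of 199.91 at Hes1 and 67.51 at Jag1. Widening by 100 kb gave 6 peaks and a highest score of 91.54 at Jag1, and 2 wild-type peaks, 1 knockout peak and a highest score of 237.29 at Notch2, so that 1 of 20 wild-type peaks in the widened windows overlapped a knockout peak. A score of at least 100 left 1 peak at Notch1 and 0 at Jag1, and the upper 50% of the list left 1 at Jag1. With that score limit, the share of tiles with as many peaks as the window was 0.147% at Hes1 (5 peaks), 19.3% at Notch1 and 23.6% at Notch2, and could not be given for Jag1. Among tiles with at least 1 wild-type peak it was 1.21% at Hes1, 13.8% at Notch1, 25.6% at Jag1 and, by construction, 100% at Notch2. On autosomes only it was 41.8% at Notch2 and 8.72% at Jag1. Hes1 kept the lowest share of the loci under each tiling run. No paired analysis was possible because each genotype had 1 library and the results come from no test. No replicate could be left out. Unknown depth limits every comparison of the lists.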
